A study of Danio rerio with 16 samples.

Results

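The embryonic globin genes are the hbae and hbbe genes of zebrafish, which code for the alpha and beta chains of the hemoglobin of the embryo. They were chosen by symbol: every gene of the count table named hbae1.1, hbae1.3, hbae3, hbae5, hbbe1.1, hbbe1.2, hbbe2 or hbbe3 was taken. The symbols were listed with earlier results of these data known. From these libraries the paper had already reported hbae3 and hbbe3 as decreased in the mutants without gfi1aa. The 8 symbols belong to 9 of the 32520 genes in the table, 5 of them alpha and 4 beta, because hbae1.3 names both ENSDARG00000089124 and ENSDARG00000088330. A newer table of gene names gives hbae1.2 for the second of these. Below, hbae1.3 without an identifier is ENSDARG00000089124.

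Hemoglobin carries oxygen and is built from alpha and beta globin chains, each holding a heme group. Embryonic globins are made by primitive erythrocytes, the first wave of red blood cells, and the adult globin genes take over later in life. In zebrafish the alpha and beta genes lie intermingled in clusters and are switched on as hemangioblast-derived progenitors in the lateral mesoderm enter the erythroid lineage under transcription factors such as Gata1a. Gfi1aa, Gfi1b and Gfi1ab are zinc finger transcriptional repressors of the Gfi1 family.

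RNA was extracted from whole embryos at 15 h post fertilization (hpf), and 16 libraries were sequenced, 2 for each of 8 genotypes. WT siblings, gfi1b-/-, gfi1ab-/- and embryos lacking both of these genes (gfi1b/1ab DM) kept gfi1aa, and the 4 genotypes without it were gfi1aa-/-, its pairings with loss of gfi1ab (gfi1aa/1ab DM) or of gfi1b (gfi1aa/1b DM), and embryos lacking all 3 genes (gfi1 TM). The alleles were smu10 for gfi1aa, smu11 for gfi1b and smu12 for gfi1ab and are small sequence changes, and no treatment is named. The question put to these genotypes here was which of the embryonic globins responded to loss of which gfi1 gene.

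The methods name a separate cross for each mutant other than gfi1b/1ab DM, and most of the double and triple mutants came from parents that already lacked 1 or 2 of the genes, so clutch and genotype cannot be told apart. Parents of gfi1aa/1b DM were gfi1aa+/- and lacked gfi1b, those of gfi1aa/1ab DM were gfi1aa+/- and lacked gfi1ab, and those of gfi1 TM lacked gfi1aa and gfi1b and were gfi1ab+/-. Nothing says how many embryos were pooled or whether the 2 libraries of a genotype came from separate clutches, and p-values measure only the spread between these libraries. Libraries held between 15657371 and 22524501 counts on genes, and between 3.52% and 5.57% of reads mapped to several places and were not counted, which touches near-identical globin copies. The counts of the targeted genes do not identify the genotypes: gfi1aa ranged from 182 to 267 counts in the libraries with gfi1aa and from 126 to 212 in those without it. Reads over the altered sequences were not examined. The embryos are whole, so fewer erythroid cells and less globin RNA per cell cannot be told apart.

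The 9 genes together held between 493 and 1052 counts in each of the 8 libraries with gfi1aa intact (median 732) and between 53 and 200 in each of the 8 without it (median 122.5). Scaled to library depth (CPM) this was 26 to 55.1 with gfi1aa and 2.35 to 11.1 without it, so that the sides did not overlap. Of the 9 genes, 6 passed the filter on low counts and were tested with the edgeR quasi-likelihood model together with all other genes, 19903 in all. hbae1.3, hbae5 and hbbe2 passed it through the libraries with gfi1aa alone, so for them a difference was built into passing, and they lend no support to any count of changed or separated members.

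The other 3 members stayed under the filter. hbae1.1 had 1 count in all 16 libraries together, in WT. hbae1.3 ENSDARG00000088330 had 18 counts in the libraries with gfi1aa and 6 in those without it (two-sided exact permutation test of CPM, 8 libraries against 8, p = 0.0249), and hbbe1.2 had 16 and 3 (exact p = 0.0368). At 0 to 4 counts per library these are values near the limit of detection. The permutation takes the 16 libraries as independent, though they are 2 for each of 8 genotypes. With gfi1aa intact, hbbe1.2 had 0 counts in both gfi1ab-/- libraries and 1 and 2 in those of gfi1b/1ab DM.

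hbbe3, hbae3 and hbbe1.1 were lower in the genotypes that lack gfi1aa. In the 4 genotypes that lack gfi1aa against the 4 that keep it, these 3 members, whose passing of the filter did not rest on one side, all fell, and 7.47% of all genes tested did. The other 3 tested members were also called lower, which their way of passing favoured. Relative to the level with gfi1aa, hbbe3 fell 15.2-fold and hbae3 3.87-fold.

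**Figure D1:**
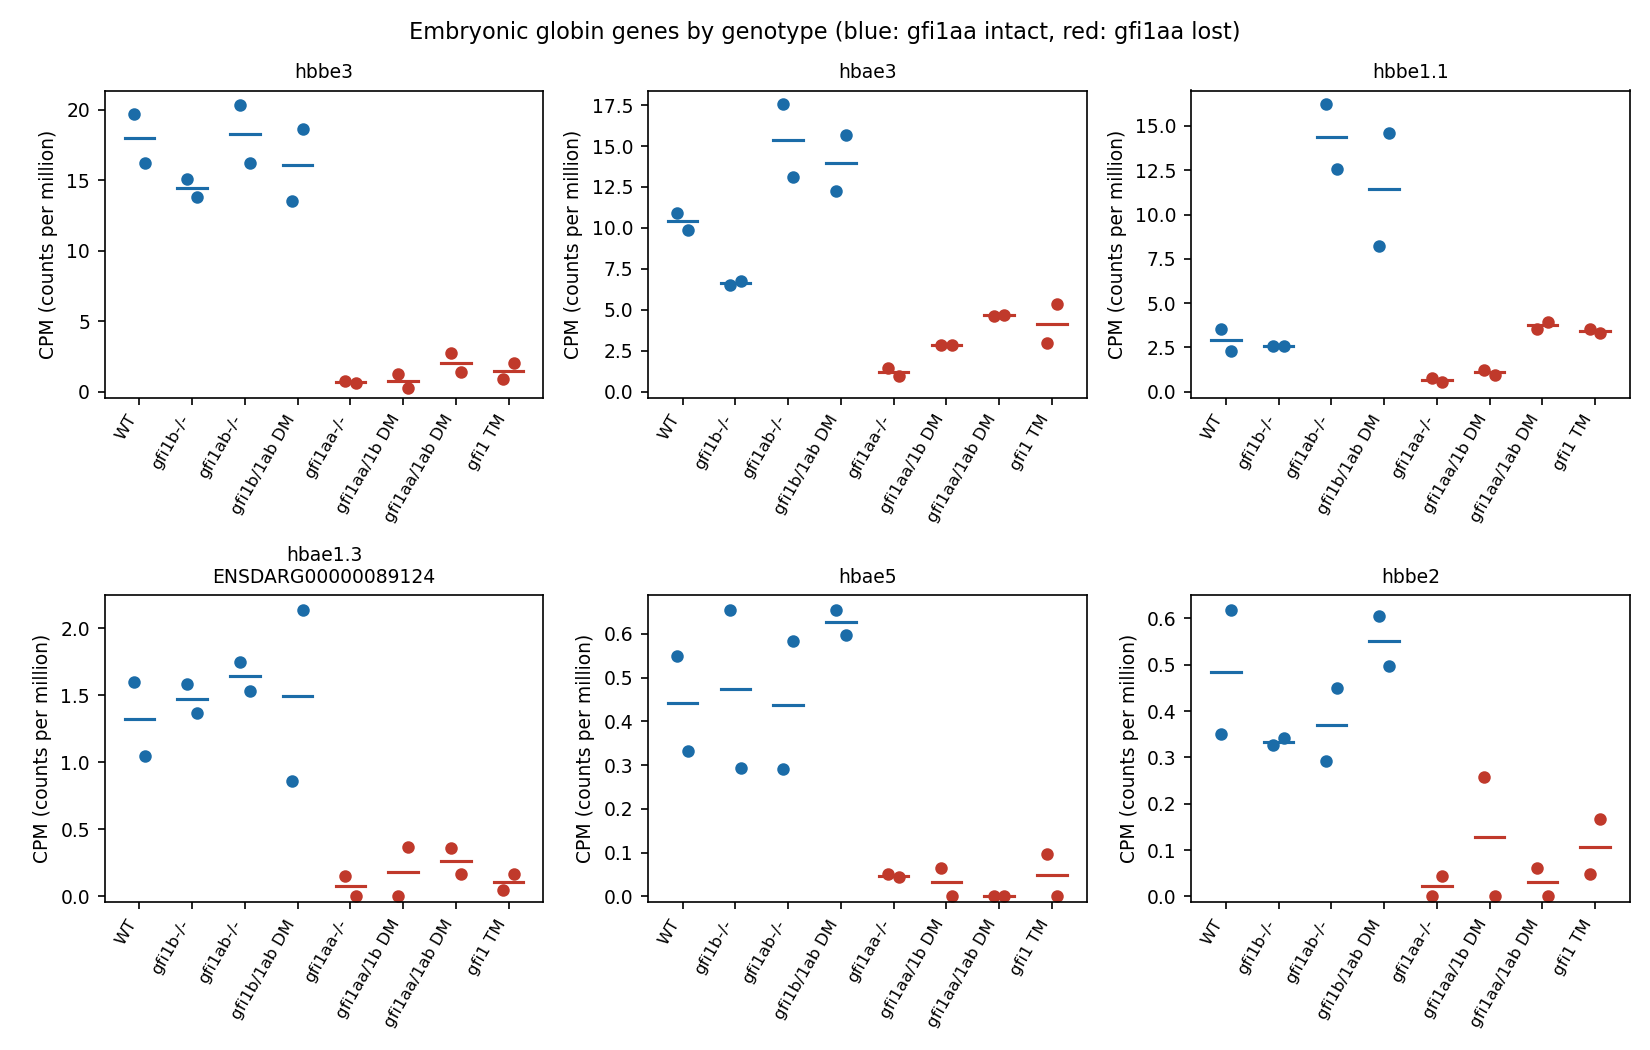
CPM (counts scaled to library depth, vertical axes, each from 0) of the 6 tested embryonic globin genes in the 8 genotypes. Each point is 1 library and each line is the mean of the 2 libraries of a genotype. All red points (gfi1aa lost) lie under all blue points (gfi1aa intact) for every gene except hbbe1.1, for which gfi1ab-/- and gfi1b/1ab DM stand highest, at 8.22 to 16.2 CPM.

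Among the alpha chains, hbae3 (ENSDARG00000079305) had, in CPM, 10.9 and 9.86 in WT, 6.48 and 6.78 in gfi1b-/-, 17.6 and 13.1 in gfi1ab-/-, and 12.3 and 15.7 in gfi1b/1ab DM. Of the genotypes without gfi1aa, gfi1 TM had 2.96 and 5.34 CPM, gfi1aa/1ab DM 4.65 and 4.71, gfi1aa/1b DM 2.84 and 2.88, and gfi1aa-/- 1.43 and 0.953. The highest library without gfi1aa lay below the lowest library with it, and within each side the libraries lacking gfi1ab were the higher ones. The log2 fold change on gfi1aa loss was -1.95 (SE 0.13, adjusted p = 1.7e-07).

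hbae1.3 had 1.60 and 1.05 CPM in WT, 1.58 and 1.37 in gfi1b-/-, 1.75 and 1.53 in gfi1ab-/-, and 0.857 and 2.14 in gfi1b/1ab DM. Without gfi1aa the highest library had 0.367 CPM, which is 7 counts, and 2 of the 8 libraries had 0 counts. Its log2 fold change was -3.33 (SE 0.41, adjusted p = 0.000114). Summed over libraries, 235 counts stood against 23.

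hbae5 had 5 to 13 counts in each library with gfi1aa and 0 to 2 in each without it, 79 against 5 in all. Allowing for depth this was 14.9-fold lower, with a 95% counting interval from 6.13 to 47.2. Its fitted log2 fold change of -4.10 (SE 0.56, adjusted p = 0.000352) depends on the small count that the model adds, because both gfi1aa/1ab DM libraries had 0 counts. Against a floor of 3 counts over that genotype, hbae5 was at least 5.03-fold lower in gfi1aa/1ab DM than in WT.

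Among the beta chains, hbbe3 (ENSDARG00000038147) had 19.7 and 16.2 CPM in WT, 15.1 and 13.8 in gfi1b-/-, 20.4 and 16.2 in gfi1ab-/-, and 13.6 and 18.6 in gfi1b/1ab DM. Of those without gfi1aa, gfi1 TM had 0.874 and 2.06 CPM, gfi1aa/1ab DM 2.72 and 1.40, gfi1aa/1b DM 1.23 and 0.262, and gfi1aa-/- 0.767 and 0.606. The lowest library with gfi1aa (13.6 CPM) stood above the highest without it (2.72 CPM), and the log2 fold change was -3.92 (SE 0.19, adjusted p = 1.22e-08).

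hbbe1.1 (ENSDARG00000113599) was the tested member whose sides overlapped. It had 3.55 and 2.29 CPM in WT, 2.56 and 2.58 in gfi1b-/-, 16.2 and 12.6 in gfi1ab-/-, and 8.22 and 14.6 in gfi1b/1ab DM. Of those without gfi1aa, gfi1 TM had 3.54 and 3.33 CPM, gfi1aa/1ab DM 3.56 and 3.92, gfi1aa/1b DM 1.23 and 0.943, and gfi1aa-/- 0.767 and 0.563. The libraries of gfi1aa/1ab DM and gfi1 TM therefore reached the WT level, while the average over genotypes still fell, by 1.76 on the log2 scale (SE 0.16, adjusted p = 6.27e-06).

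hbbe2 had 5 to 13 counts per library with gfi1aa and 0 to 4 without it, 70 against 10 in all, and its log2 fold change was -2.82 (SE 0.52, adjusted p = 0.00253). In the sum of the counts kept for each strand separately, hbae5 gained 151 reads over the 16 libraries and hbbe2 gained 150, reads that the main counts assign to neither gene. With them hbae5 had 19 to 40 counts with gfi1aa and 1 to 4 without it, hbbe2 had 15 to 36 and 1 to 7, and the log2 fold changes were -3.50 for hbae5 and -3.19 for hbbe2. As these added reads may lie on both genes at once, the values of hbae5 and hbbe2 are not independent. The other 7 members had the same counts either way.

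The libraries with and without gfi1aa did not overlap for hbbe3 and hbae3 and overlapped for hbbe1.1, and 0.226% of all genes tested were separated in this direction. hbae1.3, hbae5 and hbbe2 did not overlap either, which the filter favoured. hbbe3, hbae3 and hbbe1.1 were called lower under every alternative run for this comparison, including each of the 16 libraries left out in turn. So were hbae1.3, hbae5 and hbbe2, which the filter favoured in the runs that applied it.

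When loss of gfi1aa was taken within each background, hbbe3, hbae3 and hbbe1.1 had negative log2 fold changes each time. So did hbae1.3, hbae5 and hbbe2, which their way of passing favoured, and counts that include them lend no support. In gfi1aa-/- against WT 6 of 6 members fell (5.66% of all genes fell), in gfi1aa/1ab DM against gfi1ab-/- 5 (8.24%), in gfi1 TM against gfi1b/1ab DM 4 (0.909%) and from gfi1b-/- to gfi1aa/1b DM 2 (2.25%). Of hbbe3, hbae3 and hbbe1.1 alone, 3 fell in each of the first 3 comparisons and 2 in the last. hbbe3 and hbae3 fell in all 4. The log2 fold changes of hbbe3 were -4.71 (SE 0.40) from WT, -4.35 (SE 0.42) from gfi1b-/-, -3.16 (SE 0.35) from gfi1ab-/- and -3.48 (SE 0.36) from gfi1b/1ab DM. Those of hbae3 were -3.14 (SE 0.28), -1.21 (SE 0.26), -1.71 (SE 0.23) and -1.76 (SE 0.23) in the same order. Those of hbbe1.1 were -2.13 (SE 0.37), -1.25 (SE 0.36, adjusted p = 0.0612), -1.94 (SE 0.26) and -1.73 (SE 0.26).

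The counts of 6, 5 and 2 moved with single libraries. In gfi1aa-/- against WT 3 members fell without gfi1aa-/- replicate 2. In gfi1aa/1ab DM against gfi1ab-/- 3 fell without either gfi1aa/1ab DM library or without gfi1ab-/- replicate 2. In gfi1aa/1b DM against gfi1b-/- only hbbe3 fell without any 1 of its 4 libraries, and 4 members fell without either gfi1 TM library or without gfi1b/1ab DM replicate 1. The 4 members of gfi1 TM against gfi1b/1ab DM fell to 0 when only these 4 libraries were fitted, which leaves 2 residual degrees of freedom.

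Against WT, the other mutants without gfi1aa gave 3 lower members in gfi1 TM (5.95% of all genes fell), 5 in gfi1aa/1ab DM (11.9%) and 5 in gfi1aa/1b DM (4.73%). The 3 were hbbe3, hbae3 and hbae1.3, with log2 fold changes in gfi1 TM of -3.64 (SE 0.36), -1.34 (SE 0.23) and -3.59 (SE 0.86). Of the members whose passing of the filter did not rest on one side, hbbe3 and hbae3 were lower in each of these genotypes. Among these genotypes hbbe1.1 was lower in gfi1aa/1b DM alone. The remaining calls were of hbae1.3, hbae5 or hbbe2, which their way of passing favoured. Only hbbe3 passed in gfi1 TM when the 4 libraries were fitted alone, and 5 members passed with the sum of the strand counts. hbbe1.1 was not among the lower members in the genotypes that lack both gfi1aa and gfi1ab: its log2 fold change from WT was 0.36 (SE 0.29, adjusted p = 0.403) in gfi1aa/1ab DM and 0.24 (SE 0.29, adjusted p = 0.63) in gfi1 TM, and -0.05 in gfi1 TM without WT replicate 2. In gfi1aa/1b DM the count was 2 without WT replicate 1 or gfi1aa/1b DM replicate 1, and 3 without WT replicate 2, gfi1aa/1b DM replicate 2 or either library of gfi1b-/- or gfi1ab-/-. In gfi1aa/1ab DM it was 2 without either of its own libraries and 3 without WT replicate 2. These comparisons share the WT libraries.

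hbbe1.1 and hbae3 were higher in the genotypes that lack gfi1ab. With gfi1aa intact, hbbe1.1 rose by 2.22 on the log2 scale (SE 0.19, adjusted p = 4.65e-06), a 4.68-fold increase, and hbae3 rose by 0.81 (SE 0.15, adjusted p = 0.00292). These were 2 of 6 tested members, beside 6.29% of all genes that rose, and both rose in each alternative run. The other 4 members had log2 fold changes of 0.09 to 0.23. hbbe3 was at 0.09 (SE 0.19, adjusted p = 0.825), and at -0.03 without gfi1b/1ab DM replicate 2.

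Without gfi1aa, 3 of 6 members rose on loss of gfi1ab, beside 10.9% of all genes: hbbe1.1 by 2.09 (SE 0.25, adjusted p = 0.000166), hbae3 by 1.25 (SE 0.20, adjusted p = 0.000969) and hbbe3 by 1.3 (SE 0.39, adjusted p = 0.0271). The rise of hbbe3 rests on 5 to 45 counts per library and did not pass without either gfi1aa-/- library, gfi1aa/1b DM replicate 2, gfi1aa/1ab DM replicate 1 or gfi1 TM replicate 2, with log2 fold changes from 0.90 to 1.37. For hbbe1.1 and hbae3 every library lacking gfi1ab lay above every library that kept it, on either side of gfi1aa, as did 6.58% of all genes with gfi1aa and 6.66% without it.

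**Figure D2:**
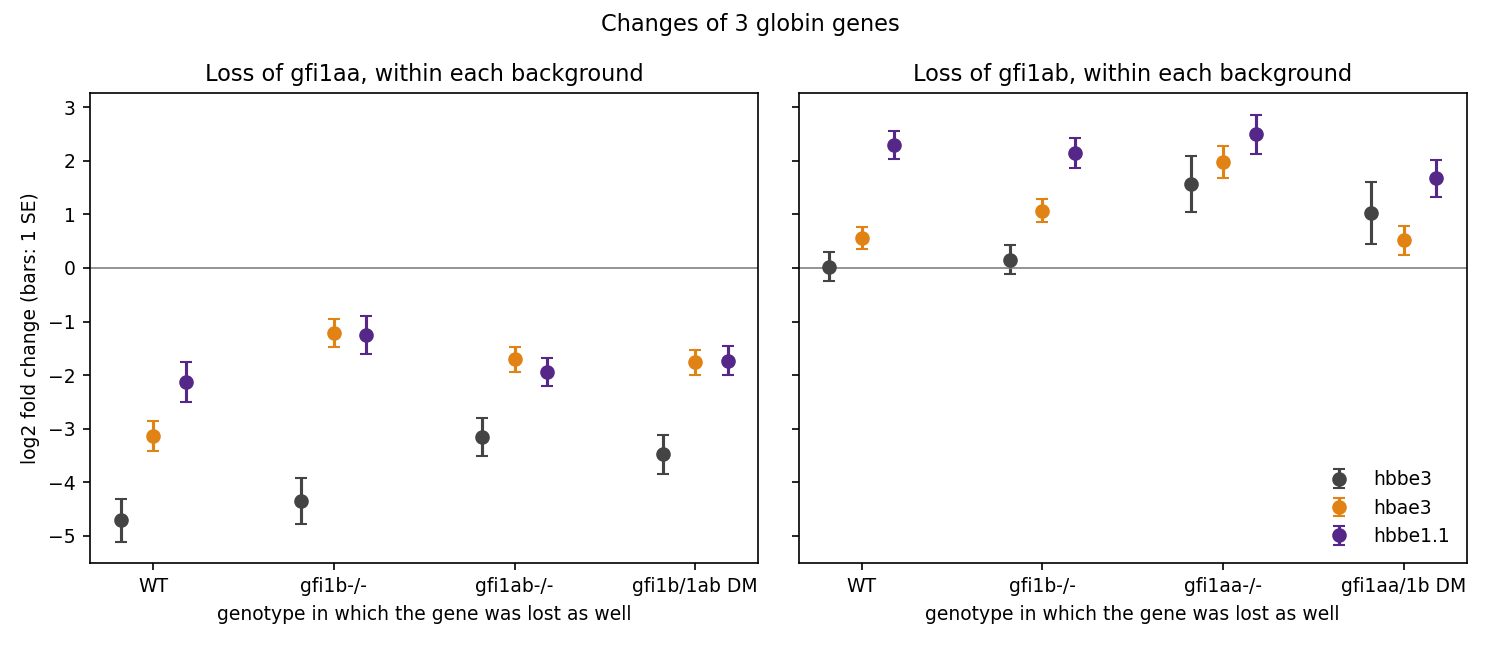
Log2 fold change (vertical axes, bars 1 SE) of hbbe3, hbae3 and hbbe1.1 on loss of gfi1aa (left) and of gfi1ab (right), in each of the 4 genotypes in which that gene was lost as well (horizontal axes). All values on the left lie below 0, from -4.71 to -1.21, and on the right hbbe1.1 lies between 1.67 and 2.50 in all 4 backgrounds.

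In single backgrounds, hbbe1.1 rose by 2.30 (SE 0.27, adjusted p = 8.94e-05) from WT to gfi1ab-/-. In the other 3, which were compared after values had been seen, it rose by 2.15 (SE 0.27, adjusted p = 0.000484) from gfi1b-/- to gfi1b/1ab DM, by 2.50 (SE 0.36, adjusted p = 0.000509) from gfi1aa-/- to gfi1aa/1ab DM and by 1.67 (SE 0.35, adjusted p = 0.015) from gfi1aa/1b DM to gfi1 TM. In these 4 comparisons 1, 2, 3 and 1 of the 6 members rose, beside 5.46%, 2.02%, 11.7% and 2.43% of all genes. The rise of hbbe1.1 to gfi1 TM did not pass without either gfi1aa/1b DM library or without gfi1 TM replicate 1. hbae3 passed from gfi1b-/- to gfi1b/1ab DM (1.07, SE 0.22) and from gfi1aa-/- to gfi1aa/1ab DM (1.98, SE 0.30), and had 0.56 (SE 0.21, adjusted p = 0.115) from WT and 0.52 (SE 0.27, adjusted p = 0.293) from gfi1aa/1b DM. hbbe3 passed from gfi1aa-/- to gfi1aa/1ab DM (1.57, SE 0.52, adjusted p = 0.0411), a call lost without either library of WT, gfi1b-/- or gfi1aa-/- and without gfi1aa/1ab DM replicate 1, where it was at 1.04 (adjusted p = 0.305). Against WT, gfi1b/1ab DM had 1 higher member, again hbbe1.1 (1.97, SE 0.27), beside 5.76% of all genes. The call of hbae3 from gfi1b-/- was lost without either gfi1b-/- library or without gfi1b/1ab DM replicate 2.

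The copies beside hbbe1.1 had few counts. hbbe1.2 had 4 and 2 counts in WT and 0 in both gfi1ab-/- libraries, and hbbe1.3, which is not a member, had 11 and 7 counts in WT, 1 and 2 in gfi1ab-/- and 2 and 8 in gfi1b/1ab DM. Reads that map to several places were 3.52% to 4.14% in the libraries with gfi1ab and 4.12% to 5.57% in those without it, and their part in the values of hbbe1.1 was not tested. Of 12 muscle genes, taken as a sign of stage, 1 fell and 0 rose on gfi1ab loss with gfi1aa intact, and 6 rose without gfi1aa. Over all genes 11.2% changed and 6.29% rose with gfi1aa intact, and 21.4% changed and 10.9% rose without it. Of 5 primitive myeloid markers tested, spi1b, a factor of the myeloid lineage, fell by 0.78 (SE 0.13) on gfi1ab loss with gfi1aa intact, and 2 fell without gfi1aa, where 4 of 10 endothelial markers rose. Genes of 3 further lists rose there: 2 of 10 erythroid markers, namely alas2 by 1.1 (SE 0.27, adjusted p = 0.00994) and znfl2a by 0.28 (SE 0.10), 2 of 16 heme synthesis genes, which are alas2 and tmem14ca, and 3 of 21 globin transcription factors and cofactors, which are klf3, tal1 and hdac1. What part any of these had in the globin values was not tested.

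On loss of gfi1b none of the 6 members was called by the edgeR test. With gfi1aa intact the log2 fold changes ran from -0.39 for hbae3 (SE 0.15, adjusted p = 0.173) to 0.28 for hbae5 (SE 0.44), beside 4.4% of all genes that changed. Without gfi1aa, hbae3 was at 0.55 (SE 0.21, adjusted p = 0.112) and hbbe3 at -0.23 (SE 0.40), beside 9.19% of all genes. At an unadjusted p under 0.05 hbae3 was the 1 member in each case, DESeq2 called 0 in both, and with no filter on low counts hbae3 was called lower with gfi1aa and higher without it. Without gfi1 TM replicate 1 its rise in the absence of gfi1aa passed, at 0.74. In gfi1b-/- against WT 0 members changed, beside 9.46% of all genes. There hbae3 had 6.48 and 6.78 CPM beside 10.9 and 9.86 in WT, a log2 fold change of -0.65 (SE 0.22, adjusted p = 0.084) that passed when the 4 libraries were fitted alone, and when either gfi1 TM library was left out of the fit of all genotypes.

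A test of whether the effect of gfi1aa loss depended on gfi1b called 0 members (4.02% of all genes), and likewise for gfi1ab (8.6%), with 1 member each at an unadjusted p under 0.05. The lowest adjusted p were those of hbae3 with gfi1b (difference 0.93, SE 0.26, adjusted p = 0.055) and of hbbe3 with gfi1ab (difference 1.21, SE 0.43, adjusted p = 0.0969). The first was called by DESeq2, by the fit with no filter, and without gfi1ab-/- replicate 2 or gfi1 TM replicate 1. The second was called with no filter and without gfi1aa/1b DM replicate 1 or gfi1 TM replicate 1. Neither was called by the main test. The gain of hbbe1.1 on gfi1ab loss differed between the sides of gfi1aa by -0.14 (SE 0.34, adjusted p = 0.847).

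gfi1 TM did not have the lowest globins. By comparison with gfi1aa-/- it had 2 higher members of 6, hbbe1.1 by 2.38 (SE 0.36, adjusted p = 0.00124) and hbae3 by 1.80 (SE 0.30, adjusted p = 0.00232), and the other 4 had values from 0.12 to 1.89 that did not pass. Of all genes, 5.79% rose in this comparison. With the 4 libraries fitted alone only hbbe1.1 passed. For hbae3 and hbbe1.1, the genotype with the lowest mean was gfi1aa-/-, and its libraries did not overlap with those of the next genotype. gfi1aa-/- also had the lowest mean for hbae1.3, hbbe2 and hbbe3, but there its libraries overlapped with those of the next genotype.

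The order of genotypes differed between genes. By mean CPM, hbbe3 was highest in gfi1ab-/-, then WT, gfi1b/1ab DM and gfi1b-/-, and continued with gfi1aa/1ab DM, gfi1 TM, gfi1aa/1b DM and gfi1aa-/-, and only the step from gfi1b-/- to gfi1aa/1ab DM separated neighbours whose libraries did not overlap. hbae1.3, hbae5 and hbbe2 likewise had this 1 gap, between the genotypes with and without gfi1aa. hbae3 ran from gfi1ab-/- through gfi1b/1ab DM, WT, gfi1b-/-, gfi1aa/1ab DM, gfi1 TM and gfi1aa/1b DM to gfi1aa-/-, and only gfi1ab-/- with gfi1b/1ab DM and gfi1aa/1ab DM with gfi1 TM overlapped. For hbbe1.1 the order was gfi1ab-/-, gfi1b/1ab DM, gfi1aa/1ab DM, gfi1 TM, WT, gfi1b-/-, gfi1aa/1b DM and gfi1aa-/-, so that gfi1aa/1ab DM and gfi1 TM stood above WT, the libraries of gfi1 TM and WT overlapping.

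The makeup of the globin counts shifted with genotype. For each hbbe3 count there were 0.43 to 0.903 hbae3 counts in the libraries with gfi1aa and 1.57 to 11 in those without it. For hbbe1.1 the ratio was 0.141 to 0.187 in the 4 libraries of WT and gfi1b-/-, 0.606 to 0.797 in those of gfi1ab-/- and gfi1b/1ab DM, and 0.929 to 4.06 in the 8 without gfi1aa. Neither ratio overlapped between the sides of gfi1aa. As hbbe3 fell more than hbae3 and hbbe1.1, a higher ratio without gfi1aa restates those falls and is no separate result. Ratios to hbbe3 were not among the planned measures. The ratio of 11 was in gfi1aa/1b DM replicate 2, in which hbbe3 had 5 counts. These are ratios of read counts within a library, without gene length, and say nothing of which chain was the more abundant.

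**Figure D3:**
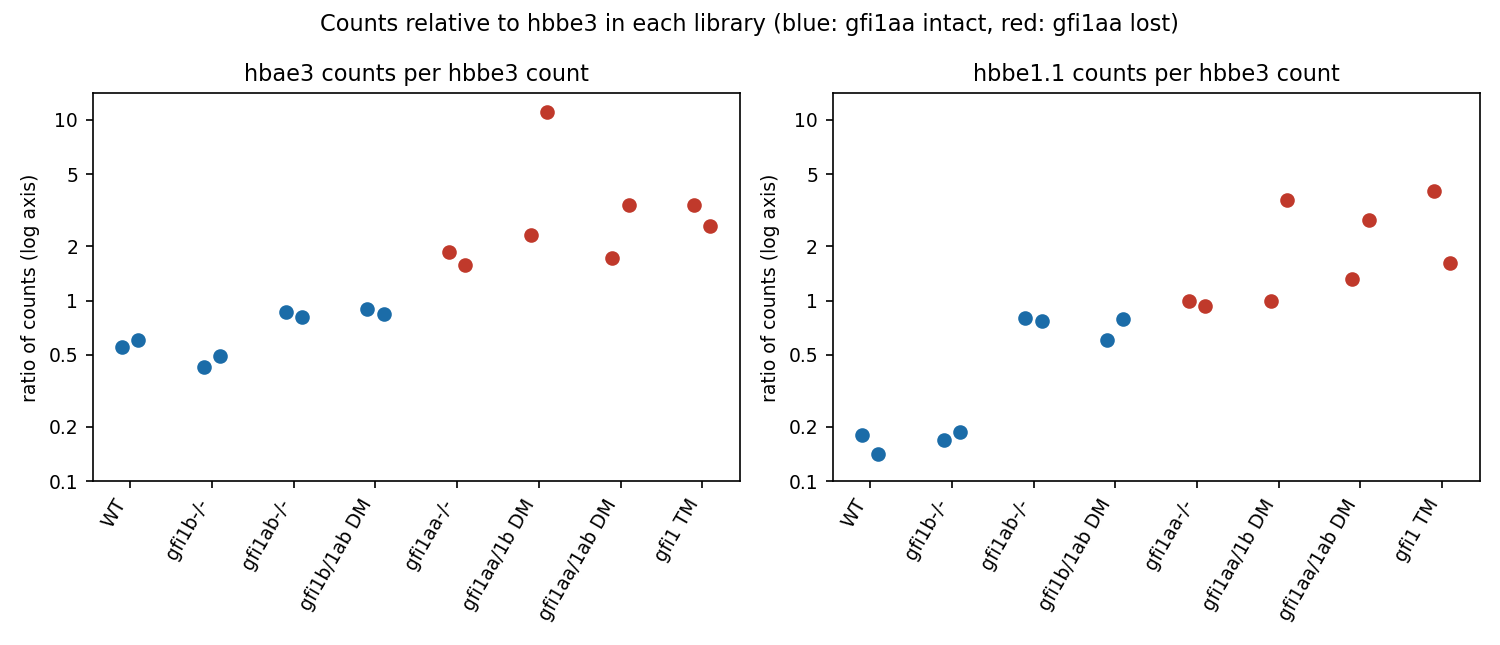
Counts of hbae3 (left) and hbbe1.1 (right) divided by the counts of hbbe3 in the same library, on log axes, for the 8 genotypes. Each point is 1 library. The red points (gfi1aa lost) lie above all blue points (gfi1aa intact) in both panels, and in the right panel the blue points form a low group at 0.141 to 0.187 and a higher group at 0.606 to 0.797.

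Over the 16 libraries the log2 CPM of the tested members were correlated in pairs with r from 0.57 to 0.89, values that the fall on gfi1aa loss shared by all of them sets to a large part. Within the 8 libraries with gfi1aa the highest value was that of hbae3 with hbbe1.1 (r = 0.89), and within the 8 without it hbae3 with hbbe1.1 also had the highest (r = 0.87). These are descriptions over libraries that share genotypes.

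Of the globin genes that are not members, zgc:163057, which the name table calls hbae4, was also lower without gfi1aa. It had 9 to 20 counts in each library with gfi1aa and 0 to 2 in each without it, 119 against 5 in all. As it passed the filter on low counts through the libraries with gfi1aa alone, a difference was built into its passing. At a floor of 3 counts over the genotype it was at least 7.31-fold lower in gfi1aa/1b DM than in WT. hbbe1.3, which stayed under the filter, had 49 counts with gfi1aa and 28 without it. Its sides overlapped, at 0.0584 to 0.55 CPM with gfi1aa and 0.0646 to 0.362 without it. The adult globin genes hbaa1, hbaa2, hbba1 and hbba2 had at most 5 counts in any library. Cytoglobin (cygb1), with a role outside red blood cells, had a log2 fold change of -0.11 (SE 0.05) and myoglobin (mb), the oxygen store of muscle, -0.14 (SE 0.14), and neither passed. Both rose on gfi1ab loss with gfi1aa intact, cygb1 by 0.26 (SE 0.07) and mb by 0.74 (SE 0.19).

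Genes that serve globin production are set here beside all genes tested, of which 14.6% changed on gfi1aa loss, 7.47% being lower. Of 16 heme synthesis genes 4 fell and 0 rose on gfi1aa loss, with a list median of -0.11: alas2, which starts heme synthesis in erythroid cells, fell by 1.49 (SE 0.17), cpox by 0.66 (SE 0.05), the mitochondrial transporter abcb10 by 0.53 (SE 0.06) and hmbsb by 0.26 (SE 0.07). Of 21 transcription factors and cofactors of globin genes 4 fell and 1 rose, with a median of -0.08. gata1a, the central erythroid factor, fell by 1.59 (SE 0.08), nfe2 by 0.82 (SE 0.24), klf17 by 0.46 (SE 0.05) and myb by 0.33 (SE 0.05), while tal1, which acts in hemangioblasts and erythroid cells, rose by 0.19 (SE 0.04). On gfi1ab loss with gfi1aa intact 6.29% of all genes rose and 11.2% changed. Of the 16 heme genes 1, urod, rose there by 0.20 (SE 0.06) and 0 fell, and 0 of the 21 factors changed.

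Set beside the same shares, erythroid and endothelial markers moved on gfi1aa loss, but part of each list was not independent of these data. From these libraries the paper had reported gata1a, alas2, sptb, tfr1a and epb41b as decreased. It had likewise reported sox7, flt4, cdh5, clec14a, etv2 and egfl7 as increased. The counts of both lists therefore lend no support, and alas2 and gata1a also stand in the heme and factor lists above. Of 10 erythroid markers 6 fell, their summed level being 209 to 255 CPM with gfi1aa and 164 to 204 without it. epb41b, of the red cell membrane skeleton, fell by 3.04 (SE 0.27), tfr1a, which takes up iron, by 2.28 (SE 0.15), gata1a by 1.59 (SE 0.08) and sptb, erythroid spectrin, by 1.52 (SE 0.18). Of 10 endothelial markers 9 rose, with summed levels of 148 to 174 and 220 to 289 CPM: clec14a rose by 0.96 (SE 0.06), cdh5 by 0.86 (SE 0.06), tie1 by 0.69 (SE 0.09) and sox7 by 0.62 (SE 0.07). Outside the reported endothelial genes, tie1, kdrl and she rose and esama did not pass. Of 5 primitive myeloid markers tested, lcp1 rose by 0.71 (SE 0.15) and spi1b fell by 0.52 (SE 0.10), with summed levels of 102 to 165 and 111 to 190 CPM. Of 12 muscle genes 1 fell, mybphb by 0.21 (SE 0.06), and 0 rose, which is near the share of all genes. Their summed levels were 1291 to 1616 and 1158 to 1487 CPM. MFAP4 of the myeloid list had 0 counts. What part these cell types had in the fall of the globins was not tested. On gfi1ab loss with gfi1aa intact, 1 of the 10 erythroid markers rose, which is again urod, beside 6.29% of all genes. In that comparison 0 of the 10 endothelial markers changed, beside 11.2% of all genes.

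The genes most like the globins were ranked by the correlation of their log2 CPM with the globin profile, the mean of the 6 tested members after centring each, over the 16 libraries. The profile includes hbae1.3, hbae5 and hbbe2, which passed the filter through the libraries with gfi1aa alone. This favours genes that differ between the sides of gfi1aa, so the ranking and the places of its genes partly follow from the filter. tfr1a (r = 0.95), cpox (r = 0.93), usp33 (r = 0.93), gata1a (r = 0.92) and rell2 (r = 0.92) came first, followed by susd1, rpap2, mtf2 and zgc:163057, each with r = 0.90. All 9 fell on gfi1aa loss, by 0.35 for mtf2 to 2.88 for rell2 on the log2 scale, leaving out zgc:163057, a direction that the choice by likeness to the profile favours. In the RefSeq gene order of the GRCz12tu assembly 4 of the 9 lie on the chromosome of gfi1aa, where 4.64% of matched tested genes lie: rpap2 is the next gene to gfi1aa, 4 genes lie between mtf2 and gfi1aa, 61 between usp33 and gfi1aa, and 169 between tfr1a and gfi1aa. Neither globin cluster shares a chromosome with gfi1aa, gfi1b or gfi1ab. The genes most like each member by itself were steap3, gata1a and rell2 for hbae1.3, lmnb1, susd1 and BX649294.1 for hbae3, and rell2, mtf2 and zgc:163057 for hbae5. For the beta chains they were si:ch211-28p3.4, pola1 and trim25 for hbbe1.1, tfr1a, ghrhra and epb41b for hbbe2, and usp33, tfr1a and rpap2 for hbbe3, with r from 0.86 to 0.96.

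The members lie in 2 clusters in that gene order, one with hbbe1.1, hbae1.1, hbbe1.2, both genes named hbae1.3 and hbae3 beside the adult globin genes, and a smaller one with hbbe3, hbbe2, hbae5 and hbae4. Of the 20 tested genes nearest the hbae3 cluster, 10 changed on gfi1ab loss with gfi1aa intact (50%, 5 in each direction), beside 11.2% of all genes. Among them stk19 fell by 2.37 (SE 0.33) and mafga by 2.22 (SE 0.37), while si:dkey-188h10.3 rose by 1.85 (SE 0.12) and aanat2 by 1.57 (SE 0.18). nprl3, the nearest tested gene on one side, whose introns hold alpha globin enhancers in mammals, rose by 0.42 (SE 0.08, adjusted p = 0.00439). kank2, the nearest on the other side, rose by 0.52 (SE 0.15, adjusted p = 0.0385). Of the 20 nearest the hbbe3 cluster, 0 changed in this comparison. On gfi1ab loss without gfi1aa 5 of 20 changed beside the hbae3 cluster (25%) and 6 beside the hbbe3 cluster (30%), and 21.4% of all genes did.

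On gfi1aa loss the counts were 8 of 20 for the hbbe3 cluster (40%) and 5 of 20 for the hbae3 cluster (25%), beside 14.6% of all genes. Beside hbbe3, slc16a6a, of the monocarboxylate transporter family, had 1909 to 2530 counts in the libraries with gfi1aa. Both gfi1aa-/- libraries had 0 counts, those of gfi1aa/1b DM 489 and 696, those of gfi1aa/1ab DM 636 and 279, and those of gfi1 TM 1962 and 1703. Its highest library without gfi1aa thus reached the range of those with it. si:dkey-220f10.4 fell by 1.47 (SE 0.17), whereas rhbdf1b and aqp8a.1, the nearest tested genes on either side, rose by 0.80 (SE 0.11) and 0.76 (SE 0.13). The part that neighbouring genes had in the values of hbbe1.1 and hbae3 on gfi1ab loss was not tested.

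**Figure D4:**
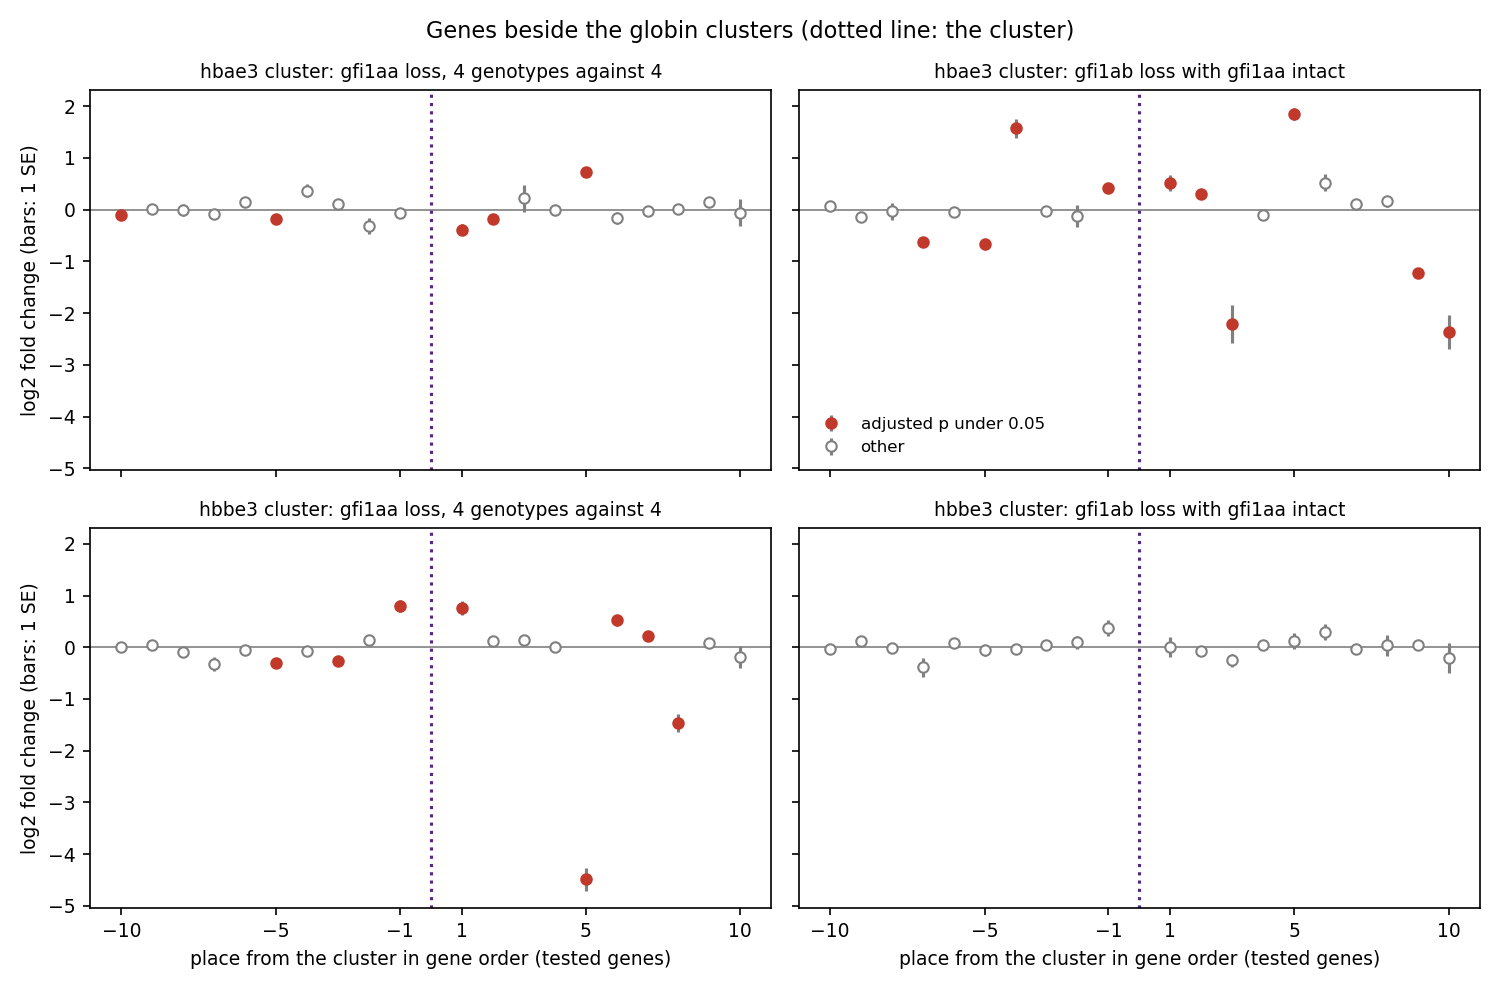
Log2 fold change (vertical axes, bars 1 SE) of the 10 tested genes on each side of the hbae3 cluster (top) and the hbbe3 cluster (bottom), by their place from the cluster in gene order, on gfi1aa loss (left) and on gfi1ab loss with gfi1aa intact (right). Filled points have an adjusted p under 0.05, and the dotted line stands for the cluster. In the right column 10 points are filled at the hbae3 cluster and 0 at the hbbe3 cluster.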

How the data were processed

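Whole-embryo RNA at 15 hpf was sequenced from 8 genotypes with 2 libraries each. Per the labels and the methods, the authors used the NEBNext Ultra kit, mapped reads with STAR to GRCz11 (version of STAR not given in the sources used here) and deposited raw counts per gene without normalization. The joined count of both strands leaves out reads that map to several places or lie on 2 genes. The quasi-likelihood test of edgeR (4.0.16, R 4.3.3) was run with TMM size factors from 0.956 to 1.03, filterByExpr, 1 mean per genotype with 8 residual degrees of freedom, Benjamini-Hochberg adjustment over the 19903 genes kept and a threshold of 0.05. Genotypes were compared in 18 contrasts, and 3 more were added after the values were seen. The SE is the size of a fold change over the root of its F. CPM uses TMM library sizes, except for the sum over all members, where it uses total counts. Log2 CPM has a prior count of 2.

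The members, gene lists and contrasts were chosen with earlier results of these data known. Named genes were all members, the 10 genes most like the globin profile, of which 9 are reported here, and 3 per member, and up to 4 per list or cluster with the largest change past the threshold. Added after their values were seen were nprl3, kank2 and some pathway genes that did not pass. On simulated counts with 200 changed genes among 19304, all changes of 2-fold and 4-fold were found in the comparison of 4 genotypes with 4, with 8 false calls, and 86.7% of the 2-fold changes in gfi1aa-/- against WT. The changes were placed only in genes with higher mean counts than hbae1.3, hbae5 and hbbe2 had. Every gene was drawn with the same dispersion and without differences between clutches. These shares therefore do not carry over to those members or to clutch differences. DESeq2 (1.42.0) was an alternative, as were RLE size factors, no filter, a replicate block, the sum of the single-strand counts, fits of the compared libraries alone and leaving out each library. Gene order came from the RefSeq table of GRCz12tu by symbol, for 16526 of the tested genes. Protein and promoter sequences were not analysed here.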

Additional observations from a re-analysis of the deposited data

How the results depend on the processing

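Single-gene fold changes were tallied for values called in the main fit and a few others, so that mostly a call could only be lost. The tally leaves out the fit with no filter, the fits of the compared libraries alone and DESeq2 values without an adjusted p. Of these fold changes, 214 kept direction and call under other size factors, DESeq2, the replicate block or summed strand counts and 9 lost the call. With 1 library left out 806 kept both, 87 lost the call, 1 gained it and 2 changed sign. The counts of changed globins moved by more than 1.5 times in 17 cases and by less in 99 for the other settings, and in 37 and 299 with 1 library left out. For gfi1aa loss over all genotypes and gfi1ab loss with gfi1aa intact no such move occurred.

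With no filter on low counts, gfi1aa/1b DM against gfi1b-/- gave 5 changed globins in place of 2, gfi1ab-/- against WT gave 2 in place of 1, and gfi1b loss on either side of gfi1aa, gfi1b-/- against WT and both interactions gave 1 in place of 0. The fit with no filter kept the 28451 genes with a count, so that all 9 members were tested rather than 6. DESeq2, run on the same genes, gave 4 for gfi1aa/1b DM against gfi1b-/- and 1 for the interaction of gfi1aa and gfi1b. The shares of all genes called under these settings are not given here. When the compared libraries were fitted alone, gfi1aa/1b DM against gfi1b-/- gave 4, gfi1 TM against gfi1b/1ab DM 0 in place of 4, gfi1b-/- against WT 1, gfi1aa/1ab DM against WT 3 in place of 5, gfi1 TM against WT 1 in place of 3 and gfi1 TM against gfi1aa-/- 1 in place of 2. The sum of the single-strand counts gave 5 for gfi1 TM against WT. The cause of these moves was not tested, except that fewer libraries leave fewer degrees of freedom. All these counts are over every tested member, hbae1.3, hbae5 and hbbe2 included, which lend no support to such counts.

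Leaving out 1 library gave 3 to 6 changed globins for gfi1aa-/- against WT, 1 to 4 for gfi1aa/1b DM against gfi1b-/-, 3 to 6 for gfi1aa/1ab DM against gfi1ab-/-, and 2 to 5 for gfi1aa/1b DM and for gfi1aa/1ab DM against WT. It gave 0 to 1 for gfi1b loss without gfi1aa, gfi1b-/- against WT, both interactions and gfi1 TM against gfi1aa/1b DM, and 1 to 2 for gfi1ab-/- against WT and gfi1b/1ab DM against gfi1b-/-. A genotype left with 1 library is assumed to vary like the others. The log2 fold change of hbbe3 on gfi1ab loss with gfi1aa intact ran from -0.03 to 0.19 and that of hbbe1.1 in gfi1 TM against WT from -0.05 to 0.58.

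Equally numbered libraries of different genotypes showed little shared deviation: over 28 pairs of genotypes, their deviations from the genotype means had correlations from -0.0908 to 0.0919. With the replicate block, gfi1aa/1b DM against WT gave 3 changed globins in place of 5, and the other counts stayed within 1.5 times. Depth limits hbae5, hbbe2 and the 3 untested members, at 0 to 13 counts per library.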
